A study of Mus musculus with 6 samples.

Results

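The 10 genes described here encode IL-33, its receptor ST2 and members of the IL-1 and IL-6 cytokine families, and they were picked by symbol from the 22880 genes of the deposited table. They are the IL-1 family ligand genes Il33, Il1a, Il1b and Il18, the receptor antagonist gene Il1rn, the receptor genes Il1rl1 and Il1rap, and the IL-6 family ligand genes Il6, Il11 and Lif. All of them were in the table, and 8 of the 10 passed the filter on low counts and were tested. They were measured in MC-38GFP cells, a murine line derived from colon adenocarcinoma and marked with green fluorescent protein (GFP). Both groups of cells carried the pLKO.1-puro lentiviral vector, with a short hairpin RNA against HIF-1α in the 3 HIF-1α-KD libraries and the mock control in the 3 Mock libraries. The cells had not been passaged in vivo before they were injected into the cecum wall of C57BL/6J mice, whose age is not given in the sources used here. Living GFP+ cells that lacked CD45 (carried by leukocytes) and CD31 (carried by endothelium) were then sorted from the tumors, a gate meant to leave out cells of the host. The comparison asks how the transcripts of tumor cells differ when HIF-1α is reduced in these cells alone.

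Cytokines of the IL-1 family are warning signals of barrier tissues such as the gut. IL-33 is stored in the nucleus, is released when a cell is damaged, and acts on ST2 (the product of Il1rl1) together with the shared receptor chain IL-1RAP, whereas IL-1α and IL-1β use IL-1R1 with the same shared chain, and IL-1Ra, the product of Il1rn, blocks IL-1R1. These receptors pass their signal through MYD88, IRAK kinases and TRAF6 to NF-κB. The IL-6 family cytokines IL-6, IL-11 and LIF each bind a receptor that works with gp130, the product of Il6st, which signals through JAK kinases and STAT3.

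The libraries held 19846013 to 30809793 reads on genes. Hif1a, the targeted gene, had normalized counts (reads on a gene divided by a factor for its library) of 6914, 5424 and 4945 across Mock replicates, compared with 697.3, 3142 and 1928 across HIF-1α-KD replicates. The groups did not overlap, and the log2 fold change (HIF-1α-KD minus Mock throughout) was -1.82 (SE 0.46, limma adjusted p = 0.219). The library labelled HIF-1α-KD 1 had the least Hif1a. All 22 leukocyte marker genes had reads in spite of the gate, with a mean FPKM (reads scaled to transcript length and library size) over the 6 libraries of 107 for Lyz2 and 30.3 for C1qb, and 18 were highest in HIF-1α-KD 3, where their summed normalized count was 20917, against 4319 and 4816 in the other HIF-1α-KD libraries and 7291 to 7733 in the Mock libraries. All 10 epithelial markers, such as Epcam and Krt8, were highest in Mock 3, with a sum of 658 against 67.9 to 148 elsewhere. The epithelial markers of an adenocarcinoma were thus low in these cells, at a mean FPKM over the 6 libraries of 0.197 for Epcam and 0.971 for Krt8, while the 8 fibroblast and pericyte markers ranged from 0.683 (Rgs5) to 551.6 (Dcn), with Pdgfra at 31.5 and Pdgfrb at 31.9. Of 7 mast cell markers, 5 had no read in any library, and Hdc (15.28 to 56.36 normalized counts) and Kit (0 to 13.19) were low. Fold changes of the members without 1 of these libraries are given below.

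Il33 was among the stronger messages of the Mock cells and was about 4 times less abundant in HIF-1α-KD cells, without overlap between the groups, whereas its receptor genes Il1rl1 and Il1rap were high in both. With limma, no member was called at an adjusted p below 0.05, a rule that 0.391% of the 12014 tested genes met. DESeq2 called Il33 lower at that threshold, where it called 2.36% of all genes in either direction. At an unadjusted limma p below 0.05 with a fold change of at least 1.5, Il33 was called lower, 1 of the 8 tested members, against 3.46% of all tested genes. No member was called higher by that rule, against 4.02% of all tested genes. Il33 was also the only one of the 8 tested members whose groups did not overlap, a pattern shown by 19.2% of all tested genes. The median log2 fold change of the 8 was -0.08, beside 0.02 over all tested genes.

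Before the values, the start of each gene is shown where the data bear on it. The RefSeq promoter table (GRCm38.p6) held 15 windows for the 10 members, each of 300 bases with 250 before and 50 from the start site on. Il33 has 2 start sites on chromosome 19, and both windows are printed because Il33 was the called member. The windows of Il1rap and Il1b follow, the first as the member with the most matches to the core of the hypoxia response element, and the second as the member with the largest positive log2 fold change. Each is written 5′ to 3′ on the strand of the gene, and capitals mark any match to ACGTG or GCGTG (the core of the element bound by HIF), GGGANTTTC (a κB-type site), TGANTCA (AP-1), TTCNNNGAA (STAT) or TATAAA (the TATA box), searched on both strands.
Il33 upstream start, chr19:29924863-29925162, plus strand: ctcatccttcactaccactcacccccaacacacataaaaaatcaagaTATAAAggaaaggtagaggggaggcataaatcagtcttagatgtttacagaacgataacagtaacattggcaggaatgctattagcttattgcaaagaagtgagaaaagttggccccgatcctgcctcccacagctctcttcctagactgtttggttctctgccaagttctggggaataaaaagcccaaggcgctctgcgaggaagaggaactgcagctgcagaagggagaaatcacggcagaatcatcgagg
Il33 downstream start, chr19:29945540-29945839, plus strand: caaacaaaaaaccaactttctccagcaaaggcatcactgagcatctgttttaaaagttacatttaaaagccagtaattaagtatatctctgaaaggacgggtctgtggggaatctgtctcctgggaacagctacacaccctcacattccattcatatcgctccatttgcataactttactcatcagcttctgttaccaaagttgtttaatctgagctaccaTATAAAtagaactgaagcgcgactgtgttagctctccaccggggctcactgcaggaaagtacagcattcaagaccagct
Il1rap start, chr16:26581455-26581754, plus strand: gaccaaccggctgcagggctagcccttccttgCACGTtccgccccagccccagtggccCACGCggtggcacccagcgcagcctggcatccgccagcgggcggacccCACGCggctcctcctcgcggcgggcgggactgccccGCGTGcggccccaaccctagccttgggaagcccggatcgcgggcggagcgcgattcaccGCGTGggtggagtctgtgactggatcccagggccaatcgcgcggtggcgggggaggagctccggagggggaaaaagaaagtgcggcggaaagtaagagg
Il1b start, chr2:129371090-129371389, minus strand: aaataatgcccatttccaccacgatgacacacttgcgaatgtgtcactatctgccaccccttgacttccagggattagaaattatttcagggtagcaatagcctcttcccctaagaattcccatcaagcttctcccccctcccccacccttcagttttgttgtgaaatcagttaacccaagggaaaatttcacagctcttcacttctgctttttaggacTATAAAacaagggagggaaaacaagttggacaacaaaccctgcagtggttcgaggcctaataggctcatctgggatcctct
The only capitals in the Il33 windows are matches to TATAAA. They begin at position -203 from the upstream start site and at -29 from the downstream one, the latter inside the gene. Neither Il33 window holds ACGTG or GCGTG. The Il1rap window holds ACGTG once and GCGTG 4 times in letters of either strand. Of 32851 RefSeq promoter windows of this length, 19.6% held ACGTG and 32.4% held GCGTG. Among the 15 member windows, ACGTG was found in 1 (Il1rap) and GCGTG in 4 (Il1rn, Il1rl1, Il1rap and Lif). The κB-type motif was found in 1, that of Il6, at -44, and is held by 1.11% of all windows. AP-1 letters were found in 5 of the 15 (1 each for Il1a, Il1rn, Il6, Il11 and Lif), where 7.81% of all windows hold them. TATAAA letters were found in 6 of the 15 (both of Il33 and 1 each for Il1a, Il1b, Il18 and Il1rn), where 13.6% of all windows hold them. The matches of Il1a and Il1b begin at -32 and -31 on the strand of the gene. Those of Il18 (at -175) and Il1rn (at 15, after the start site) are on the other strand. The STAT letters were found in 0, where 8.30% hold them. The TGANTCA and GCGTG matches of the upstream Il1rn window overlap. A match is a description of letters and not a bound site, and no match says only that these letters are not in this window.

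Il33 (ENSMUSG00000024810, chr19:29925114-29960718, plus strand, GRCm38) had normalized counts of 1506, 2023 and 3282 across Mock replicates, compared with 308.1, 744.6 and 767 across HIF-1α-KD replicates. Every HIF-1α-KD library lay below every Mock library, and the lowest value was in HIF-1α-KD 1, the library with the least Hif1a. Within Mock the order was the reverse, with Hif1a at 6914, 5424 and 4945 across replicates. HIF-1α-KD 2 had more Hif1a than HIF-1α-KD 3 (3142 against 1928) but not more Il33. The means were 2270 ± 913 (SD, n = 3) and 607 ± 259 (SD, n = 3), so HIF-1α-KD cells held 26.7% of the Mock level. The log2 fold change was -1.94 (SE 0.39, 95% interval -2.83 to -1.05), a 3.84-fold lower level on the log2(normalized count + 1) scale. Its unadjusted p was 0.000849, and the adjusted p of limma was 0.124. DESeq2 on the recovered reads called Il33 at an adjusted p of 1.17e-05 with a log2 fold change of -1.92, the only member it called, and it called 2.36% of all genes. Across 16 alternatives the log2 fold change of Il33 stayed between -2.20 and -1.51, with adjusted p between 1.17e-05 and 0.279.

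Mock 3 held both the highest Il33 and the highest epithelial markers. Without Mock 3, the log2 fold change of Il33 was -1.64 (adjusted p = 0.279 by limma), and without both libraries numbered 3 it was -1.86 (adjusted p = 0.210). Il33 in HIF-1α-KD 3, with its high leukocyte markers, differed little from HIF-1α-KD 2, at 767 against 744.6. The summed normalized counts of 8 endothelial markers were 511 to 634 in Mock libraries and 335 to 487 in HIF-1α-KD libraries, without overlap. Cdh5 (422.3 to 568.9 against 197.5 to 395.7) made up most of the sum and was the only 1 of the 8 whose groups did not overlap. Pecam1 (33.49 to 71.4 against 39.57 to 75.08) and Tek (4.924 to 12.44 against 8.043 to 41.97) had their highest values in HIF-1α-KD libraries, and Tie1, Kdr, Vwf, Emcn and Esam had at most 12.71 in any library. Of the 8 fibroblast and pericyte markers, Cspg4 (300.4 to 1417 against 1489 to 2032) and Rgs5 (16 to 30.62 against 40.77 to 66.76) were higher in every HIF-1α-KD library. The others overlapped, among them Dcn (20610 to 42580 against 15050 to 27140) and Dpt (61.55 to 654.7 against 14.48 to 247). Dcn and Dpt were highest in Mock 3, 5 of the 8 in HIF-1α-KD 1 and 1 in HIF-1α-KD 3. The sum of the list overlapped and was highest in Mock 3, at 52031 against 24973 to 39695 elsewhere. The part of such cells in the Il33 values was not tested. In a bulk library, fewer cells that express a gene and less RNA of it per cell cannot be told apart.

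**Figure D1:**
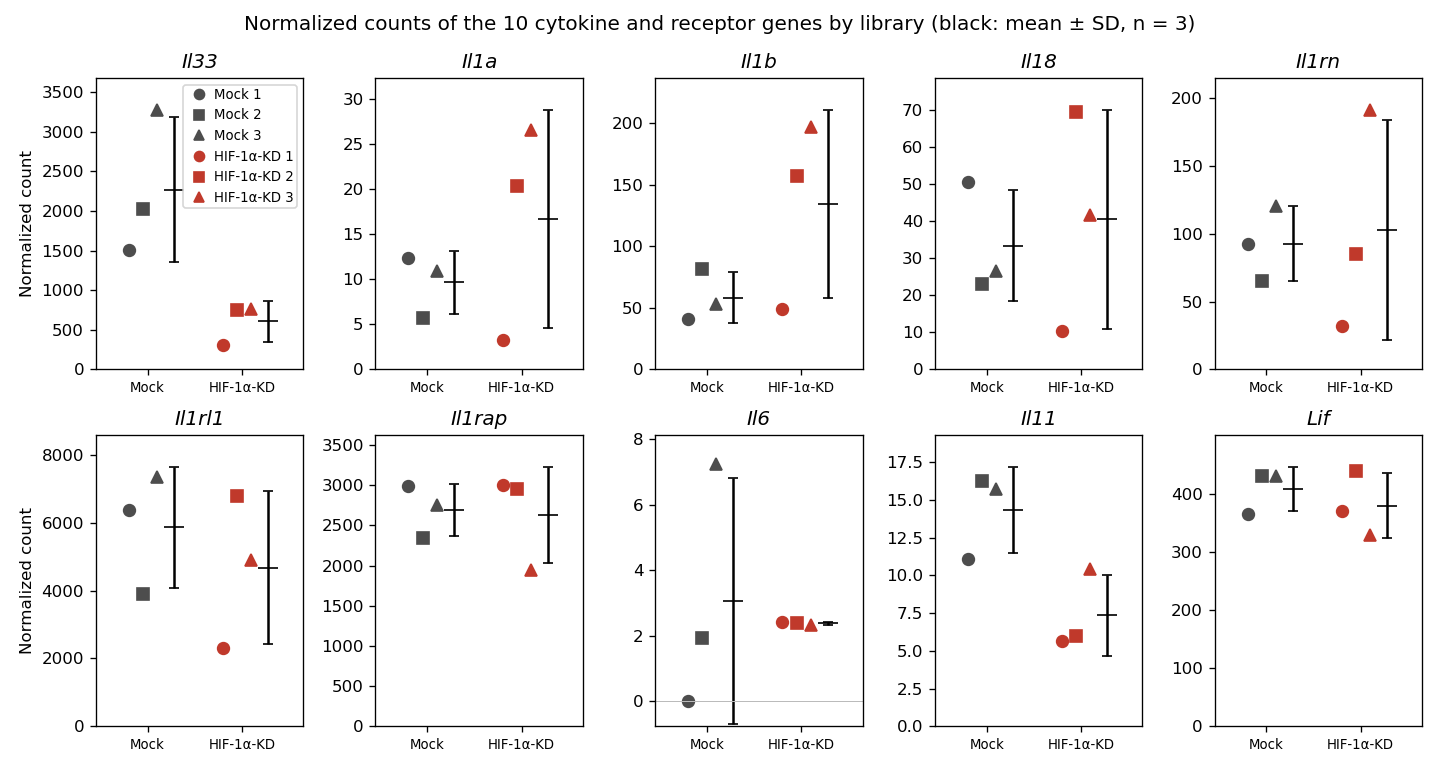
Normalized counts (linear axis from each panel's own scale) of the 10 genes in the 3 Mock libraries (gray) and the 3 HIF-1α-KD libraries (red), with circle, square and triangle for replicates 1, 2 and 3 and the mean ± SD in black. Il33 and Il11 are the genes in which all HIF-1α-KD libraries lie below all Mock libraries, though the Il11 groups overlap by FPKM. In Il1a, Il18 and Il1rn the HIF-1α-KD values spread to both sides of the Mock values.

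**Figure D2:**
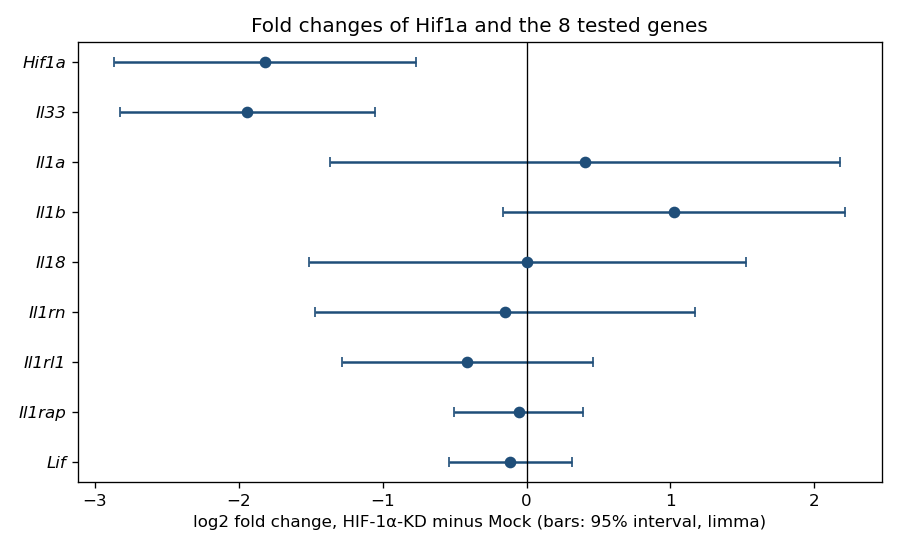
log2 fold changes (HIF-1α-KD minus Mock, points) with 95% intervals of limma (bars) for Hif1a and the 8 tested genes. Hif1a and Il33 have intervals below 0, from -2.87 to -0.77 and from -2.83 to -1.05, and the intervals of the other 7 genes include 0.

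Il1rl1 (chr1:40429570-40465415, plus strand) encodes ST2, both as the membrane receptor for IL-33 and, from a shorter transcript, as a soluble decoy, and the gene-level counts do not separate these forms. Its normalized counts were 6373, 3891 and 7349 across Mock replicates, compared with 2322, 6799 and 4907 across HIF-1α-KD replicates. HIF-1α-KD 1 was the lowest of all, and the other HIF-1α-KD libraries lay within the Mock range. The log2 fold change was -0.41 (SE 0.38, 95% interval -1.28 to 0.46, adjusted p = 0.690), and it ranged from -0.75 without HIF-1α-KD 2 to 0.03 without HIF-1α-KD 1 when a library was left out, with -0.68 without Mock 2, -0.22 without Mock 3 and -0.51 without HIF-1α-KD 3. Per transcript length, Il1rl1 was the strongest of the 10 members in both groups, at a mean FPKM of 79.7 ± 22.02 (SD, n = 3) for Mock against 66.9 ± 33.05 (SD, n = 3) for HIF-1α-KD cells. In Mock cells, 93.4% of the genes in the table had a lower mean FPKM. Mast cells also carry ST2, and beside these levels Cpa3, Ms4a2, Fcer1a, Tpsb2 and Mcpt4 had no read, while Hdc and Kit had the low counts given above. The part of other cells in the Il1rl1 values was not tested.

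Il1rap (chr16:26581704-26730117, plus strand), the receptor chain shared by IL-33 and IL-1, had 2987, 2348 and 2757 normalized counts across Mock replicates, compared with 3006, 2952 and 1945 across HIF-1α-KD replicates. The lowest value was in HIF-1α-KD 3 and the groups overlapped. The log2 fold change was -0.05 (SE 0.20, 95% interval -0.50 to 0.39, adjusted p = 0.932), an interval that leaves room for a change of less than 1.5-fold in either direction, and its sign differed in 4 of 16 alternatives, with 0.15 without HIF-1α-KD 3. Its mean FPKM was 37.9 ± 3.29 (SD, n = 3) for Mock against 38.6 ± 8.32 (SD, n = 3) for HIF-1α-KD cells.

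The transcripts of the ligand and its receptor were also compared with each other within each library. The ratio of Il33 to Il1rl1 FPKM, chosen after the values were seen, was 0.527, 1.16 and 0.995 across Mock replicates, compared with 0.296, 0.244 and 0.348 across HIF-1α-KD replicates. All HIF-1α-KD ratios lay below all Mock ratios, and the two-sided exact permutation p was 0.1, the smallest that 3 against 3 libraries can give. The ratio of Il1rap to Il1rl1 overlapped between the groups, with an exact permutation p of 0.8.

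Il1b (chr2:129364570-129371139, minus strand), the inflammatory cytokine that is cut to its active form by caspase-1, had 40.62, 81.34 and 53.15 normalized counts across Mock replicates, compared with 49.06, 157.1 and 197.5 across HIF-1α-KD replicates. HIF-1α-KD 2 and 3 lay above every Mock library, and HIF-1α-KD 1 lay within the Mock range. The log2 fold change was 1.03 (SE 0.52, 95% interval -0.16 to 2.22, unadjusted p = 0.0820, adjusted p = 0.460 by limma). With edgeR on the recovered reads it was 1.17 (unadjusted p = 0.0474), with DESeq2 1.19 (unadjusted p = 0.0224) and without HIF-1α-KD 1 1.63 (unadjusted p = 0.00137), and the adjusted p stayed at 0.141 or more in all alternatives. Il1b is also a message of myeloid cells, and the library with the most Il1b was the one in which 18 of 22 leukocyte markers were highest. Without HIF-1α-KD 3, the log2 fold change of Il1b was 0.64, and without both libraries numbered 3 it was 0.60. The leukocyte marker sum was 4816 in HIF-1α-KD 2, where Il1b had 157.1 normalized counts, and 20917 in HIF-1α-KD 3, where it had 197.5. The part of leukocyte RNA in the Il1b values was not tested.

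Il1rn (chr2:24336853-24351494, plus strand), the natural antagonist of IL-1, had 92.33, 65.07 and 120.8 normalized counts across Mock replicates, compared with 32.17, 85.13 and 191.7 across HIF-1α-KD replicates. Its lowest and its highest value were both in HIF-1α-KD libraries, and the highest was in HIF-1α-KD 3. The log2 fold change was -0.15 (SE 0.58, 95% interval -1.47 to 1.17, adjusted p = 0.937), with the other sign in 4 of 16 alternatives. It was -0.77 without HIF-1α-KD 3, 0.50 without HIF-1α-KD 1 and 0.06 without Mock 3, and with all 6 libraries it was 0.13 with edgeR and 0.14 with DESeq2, so its direction was not settled. The ratio of Il1rn to Il1b FPKM, also chosen after the values were seen, was 1.27, 0.446 and 1.27 across Mock replicates, compared with 0.365, 0.302 and 0.541 across HIF-1α-KD replicates, which overlapped (two-sided exact permutation p = 0.2).

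Il1a (chr2:129299610-129309972, minus strand), an IL-1 receptor ligand that is active without cleavage, had 12.31, 5.742 and 10.87 normalized counts across Mock replicates, compared with 3.217, 20.38 and 26.57 across HIF-1α-KD replicates. The HIF-1α-KD libraries held both extremes, and the log2 fold change was 0.41 (SE 0.78, 95% interval -1.37 to 2.18, adjusted p = 0.855). It was -0.11 without HIF-1α-KD 3, the library with the most leukocyte markers and the most Il1a, and 1.25 without HIF-1α-KD 1. Il18 (chr9:50554827-50581840, plus strand), a caspase-1 substrate of epithelial and myeloid cells, had 50.47, 22.97 and 26.57 normalized counts across Mock replicates, compared with 10.46, 69.55 and 41.58 across HIF-1α-KD replicates. Its log2 fold change was 0.01 (SE 0.67, 95% interval -1.51 to 1.53, adjusted p = 0.998), and 7 of 16 alternatives gave the other sign, among them -0.19 without HIF-1α-KD 3, while it was 0.76 without HIF-1α-KD 1. For both genes the intervals include 2-fold changes in either direction, so a difference of that size was not detectable at this depth and spread. HIF-1α-KD 1 had the lowest value of all 6 libraries for Il33, Il1a, Il18, Il1rn and Il1rl1, and it also had the lowest leukocyte marker sum.

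**Figure D3:**
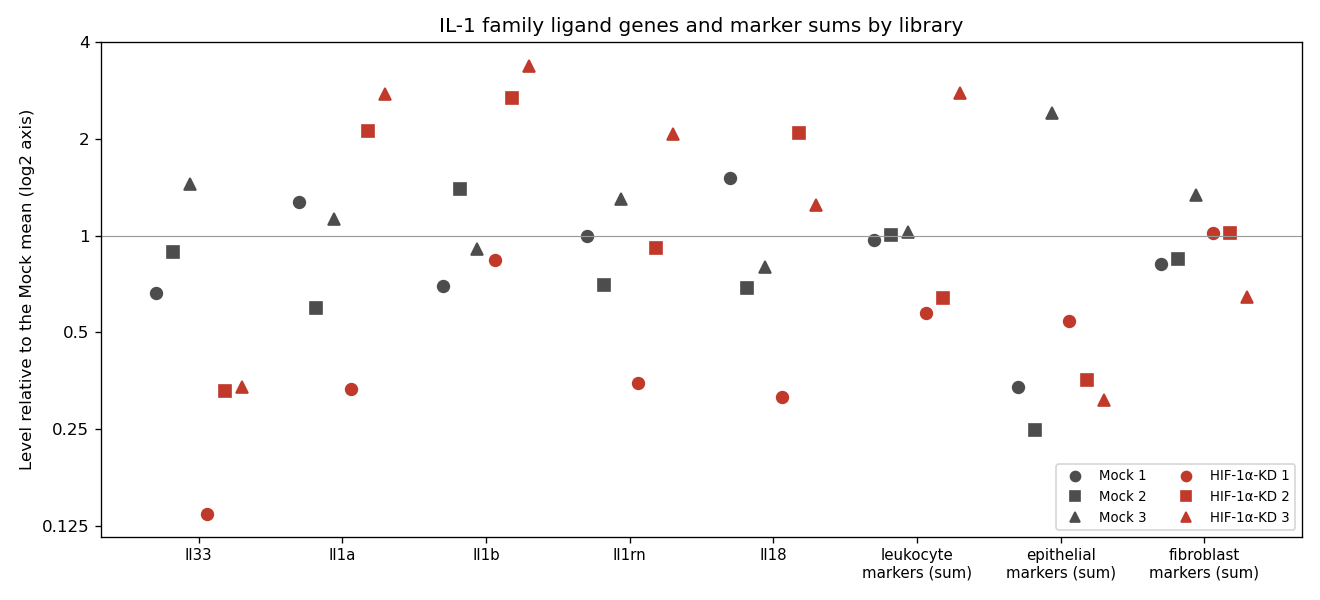
Level of each IL-1 family ligand gene, and the summed level of 3 marker lists, in each library divided by the Mock mean (log2 axis, gray for Mock, red for HIF-1α-KD, and circle, square and triangle for replicates 1, 2 and 3). All 3 HIF-1α-KD points of Il33 lie below the Mock points, Il1b is above 2 times the Mock mean in HIF-1α-KD 2 and 3, the leukocyte sum is highest in HIF-1α-KD 3 and the epithelial sum is highest in Mock 3.

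Of Il6, Il11 and Lif, the strongest was Lif (chr11:4257557-4272514, plus strand), which encodes leukemia inhibitory factor. It had 364.4, 430.6 and 430 normalized counts across Mock replicates, compared with 370.8, 438.9 and 328.1 across HIF-1α-KD replicates, and the groups overlapped. The log2 fold change was -0.11 (SE 0.19, 95% interval -0.54 to 0.32, adjusted p = 0.837), and -0.01 without HIF-1α-KD 3.

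Il11 (chr7:4772373-4782859, minus strand), a gp130 cytokine of stromal and epithelial repair, was too low to be tested. It had 9, 17 and 13 reads across Mock replicates, compared with 7, 5 and 9 across HIF-1α-KD replicates, or 11.08, 16.27 and 15.7 normalized counts against 5.63, 5.995 and 10.4. By normalized count all HIF-1α-KD libraries lay below all Mock libraries, though Mock 1 and HIF-1α-KD 3 had 9 reads each. On the FPKM scale the groups overlapped, with 0.3878 in HIF-1α-KD 3 against 0.3822 in Mock 1. Without the filter, limma gave a log2 fold change of -0.91 (SE 0.49, 95% interval -1.99 to 0.18, adjusted p = 0.548).

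Il6 (chr5:30013114-30019981, plus strand), the founding cytokine of its family, was close to the limit of detection. It had 0, 2 and 6 reads across Mock replicates, compared with 3, 2 and 2 across HIF-1α-KD replicates. The 0 of Mock 1 allows a normalized count of up to 3.69 (3 reads), a limit for counting error only, and 4 of the other libraries lay below their own limit of 3 reads or at it. No difference in Il6 was detectable at this depth.

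On the FPKM scale, the order of the levels in Mock cells was Il1rl1, Il33, Il1rap, Lif, Il1b, Il1rn, Il18, Il11, Il1a and Il6. Il33 stood at 69.1 ± 26.96 (SD, n = 3), and its range overlapped that of Il1rl1 but not that of Il1rap. Lif stood at 5.96, Il1b at 2.91, Il1rn at 2.54 and Il18 at 1.88, and the ranges of Il1b and Il1rn overlapped, as did those of Il1rn and Il18. Il11 was at 0.509, Il1a at 0.194 and Il6 at 0.0954. In HIF-1α-KD cells Il33 came after Il1rl1 and Il1rap, at 19.4 ± 8.55 (SD, n = 3), below Il1rap in every library, and Il1b, at 6.97 ± 4.06 (SD, n = 3), came before Lif, at 5.75 ± 0.878 (SD, n = 3), though these overlapped, as did Il33 with Il1b and Il1rl1 with Il1rap. Il1rn at 2.98 and Il18 at 2.42 followed, and Il1a at 0.356, Il11 at 0.271 and Il6 at 0.0776 closed the order.

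The genes with the profile most like that of Il33 over the 6 libraries were Ramp3, Prl2c2, Egln3, Foxc2 and Gpr35. Likeness was measured as the root mean square difference of log2(normalized count + 1) after each gene was centered on its mean, which was 0.270 for Ramp3, 0.287 for Prl2c2, 0.289 for Egln3, 0.318 for Foxc2 and 0.348 for Gpr35, beside a root mean square of 1.11 for Il33 around its own mean. Egln3, a HIF prolyl hydroxylase gene, had 4965, 3933 and 8938 normalized counts across Mock replicates, compared with 626.6, 1842 and 2419 across HIF-1α-KD replicates. As in Il33, its highest value was in Mock 3 and its lowest in HIF-1α-KD 1. Ramp3, a partner of adrenomedullin receptors, had 46.78, 53.59 and 130.5 against 12.06, 22.78 and 18.48, and Foxc2, a transcription factor gene of mesenchyme and vessels, had 82.48, 115.8 and 137.7 against 24.93, 38.37 and 54.29. Since these genes were selected for this pattern, their values are a description only.

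**Figure D4:**
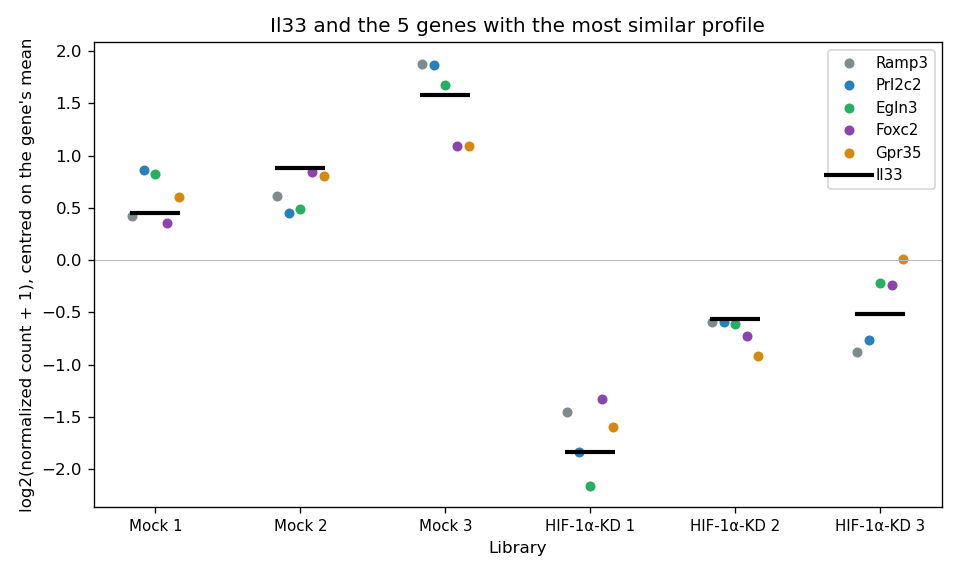
log2(normalized count + 1) centered on each gene's mean (vertical axis) in the 6 libraries (horizontal axis) for Il33 (black bars) and the 5 genes with the most similar profile (colored points). All 6 genes lie above their mean in the Mock libraries, highest in Mock 3, and lowest in HIF-1α-KD 1.

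The other genes of the pathways were taken from 5 lists that hold 80 genes of the table, of which 9 had no read and 58 were tested. None was called at an adjusted p below 0.05 with limma, whereas DESeq2 on the recovered reads called 1 of them lower, beside 2.36% of all genes in either direction. With limma, 34 of the 58 had a positive and 24 a negative log2 fold change, and their median was 0.09. By unadjusted p below 0.05 with a fold change of at least 1.5, 4 of the 58 were higher and 4 lower, beside 4.02% and 3.46% of all tested genes. Groups did not overlap in 6 that were higher and 5 that were lower, or 11 of 58, beside 19.2% of all tested genes.

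Of the other IL-1 family ligands and receptors, 5 of 14 were tested and their median log2 fold change was 0.30. Il1r1, the signaling receptor of IL-1, had 881.4, 989.5 and 748.9 normalized counts across Mock replicates, compared with 1246, 1421 and 1222 across HIF-1α-KD replicates, without overlap (log2 fold change 0.58, SE 0.16, adjusted p = 0.253). Il1rl2, the IL-36 receptor gene, was low, with 7.386, 7.656 and 4.832 against 31.37, 13.19 and 15.02 normalized counts (log2 fold change 1.37, SE 0.56, adjusted p = 0.375). The negative regulator Sigirr stood at -0.34 and the soluble IL-18 inhibitor Il18bp at 0.30 on the log2 fold change scale, with overlap in both. For IL-18, the accessory receptor gene Il18rap was well expressed, at a mean FPKM of 19.3 in Mock against 22.9 in HIF-1α-KD cells (log2 fold change 0.19, adjusted p = 0.670), whereas the ligand-binding receptor gene Il18r1 had at most 2.416 normalized counts in any library. The decoy receptor gene Il1r2 was too low to be tested, at 4.022 to 18.48 normalized counts. The genes of the IL-36 ligands Il1f6 and Il1f8, and Il1f5 and Il1f10, had no read.

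The list of IL-1 cytokine processing and release had 12 tested genes, with a median log2 fold change of -0.01. Casp1, which encodes the protease that matures IL-1β and IL-18, had a mean FPKM of 60.8 in Mock against 51.7 in HIF-1α-KD cells (log2 fold change -0.31, adjusted p = 0.633). Of this list 2 genes were called higher by unadjusted p and fold change, both without overlap, the ATP-gated channel gene P2rx7 (0.74, adjusted p = 0.384) and the gasdermin E gene Dfna5 (1.07, adjusted p = 0.382), and neither passed the adjustment. The DNA sensor gene Aim2 stood at -0.60 (adjusted p = 0.466) and the calpain gene Capn2 at 0.22 (adjusted p = 0.587).

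Among 14 tested genes of IL-1 and IL-33 receptor signaling the median log2 fold change was 0.04. The adaptor gene Myd88 (0.25, adjusted p = 0.554), the kinase gene Irak4 (0.14, adjusted p = 0.790) and the ubiquitin ligase gene Traf6 (-0.21, SE 0.21, adjusted p = 0.711) overlapped between the groups. Traf6 had 663.5, 534 and 405.9 normalized counts across Mock replicates, compared with 443.2, 448.5 and 467.8 across HIF-1α-KD replicates. Peli1, which encodes a ubiquitin ligase that binds IRAK proteins, was the 1 gene of the list called by unadjusted p and fold change, with 193.3, 120.6 and 112.3 against 79.63, 62.35 and 87.79 normalized counts (log2 fold change -0.85, SE 0.30, adjusted p = 0.320). Tab3 (-0.35) and Chuk (-0.34), which encode parts of the TAK1 and IKK kinase complexes, did not overlap either, and the TAK1 gene Map3k7 stood at 0.35, with adjusted p between 0.420 and 0.506 for these 3.

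**Figure D5:**
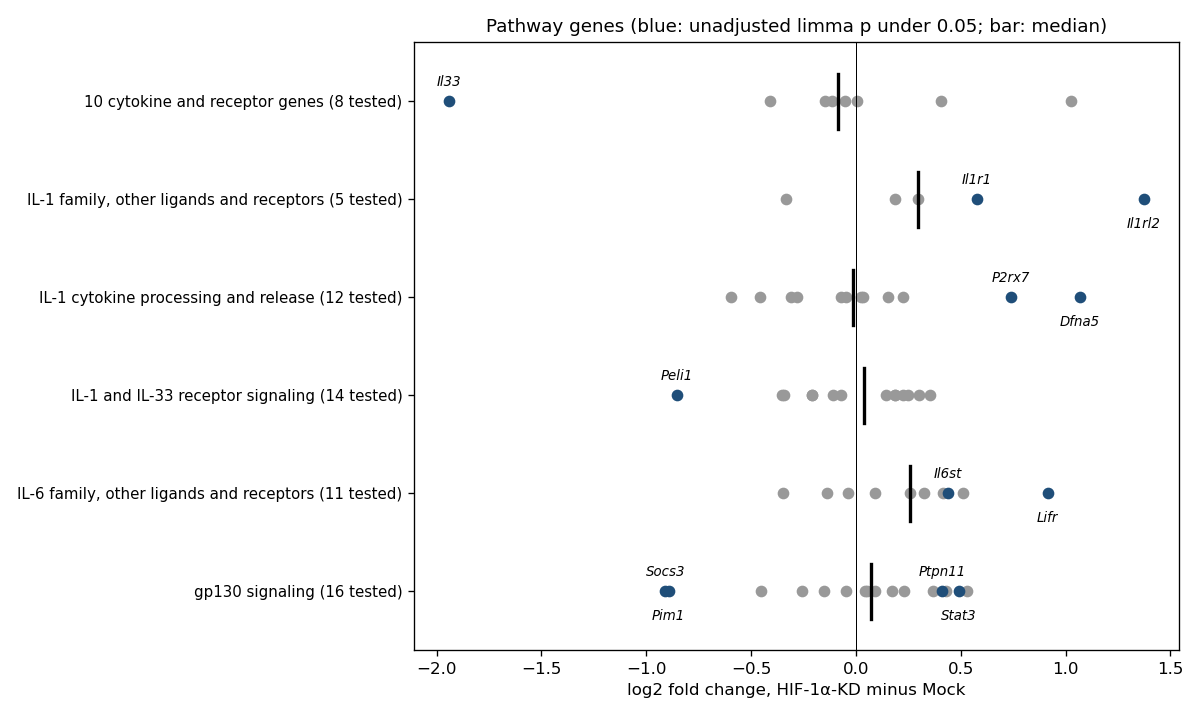
log2 fold change (HIF-1α-KD minus Mock, horizontal axis) of each tested gene (points) in the 10 cytokine and receptor genes and in 5 pathway lists (rows), with the median of each as a black bar and genes of unadjusted limma p below 0.05 in blue with their names. In the IL-6 family row, 1 gene is counted but not drawn. Il33 at -1.94 lies farther from 0 than every gene of the 5 lists, which span -0.91 to 1.37, and the medians lie between -0.08 and 0.30.

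On the IL-6 side, 11 of the 18 other ligand and receptor genes were tested, with a median log2 fold change of 0.26. Il6st, which encodes gp130, had 4486, 4638 and 3855 normalized counts across Mock replicates, compared with 5437, 7369 and 5004 across HIF-1α-KD replicates, without overlap (log2 fold change 0.44, SE 0.17, adjusted p = 0.367). The ligand-binding receptor genes were lower in level than Il6st on the FPKM scale. In Mock cells Il6ra stood at 2.44, Il11ra1 at 9.54, Osmr at 1.86 and Lifr at 0.269, beside 60.7 for Il6st. The log2 fold changes were -0.35 for Il6ra, 0.33 for Il11ra1, 0.51 for Osmr and 0.91 for Lifr, with adjusted p between 0.386 and 0.630. The groups did not overlap for Il11ra1.

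All 16 genes of the gp130 signaling list were tested, with a median log2 fold change of 0.07. Stat3, the main transcription factor of the pathway, had 2535, 3317 and 2993 normalized counts across Mock replicates, compared with 3040, 5120 and 4476 across HIF-1α-KD replicates, which overlapped (log2 fold change 0.49, adjusted p = 0.385). Socs3, a STAT3-induced inhibitor of gp130 signaling, had 1605, 2152 and 1094 against 633.8, 983.2 and 914.8 normalized counts, without overlap (log2 fold change -0.91, SE 0.27, adjusted p = 0.268). Pim1, a kinase gene that STAT3 induces, had 407.5, 305.3 and 310.4 against 253.4, 122.3 and 192.9, also without overlap (log2 fold change -0.89, SE 0.29, adjusted p = 0.294). Ptpn11, which encodes the phosphatase SHP2, stood at 0.41 (adjusted p = 0.381).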

How the data were processed

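RNA of sorted MC-38GFP cells was compared in 3 Mock and 3 HIF-1α-KD libraries, grouped by their labels. Neither the labels nor the methods say whether libraries came from separate tumors, so p-values measure the spread between these samples, which may be technical. Within each group, replicate libraries varied beyond counting noise (chi-square per degree of freedom 30.5 to 97.6). The authors prepared poly-A libraries with a stranded kit, trimmed the single-end reads, aligned them with STAR and counted them with featureCounts, whose strand setting is not given in the sources used here. The methods name a human assembly, whereas the submitters' processing notes name GRCm38, STAR and edgeR, and the identifiers are mouse.

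The deposited normalized counts are a signal, each count divided by the authors' factor for the library. The authors also deposited FPKM values, used here only for levels between genes and for marker levels. The deposited log2 ratio, p-value, false discovery rate and the GC fraction were not used here, and 0 per-sample columns were left unmatched. Reads were recovered by removing the factor (100% of values up to 300 reads were whole within 0.1). filterByExpr of edgeR 4.0.16 (minimum count 10) kept 12014 genes. Libraries were compared on log2(normalized count + 1) with limma 3.58.1 (mean-variance trend allowed, two-sided) and Benjamini-Hochberg adjustment over all tested genes. Fold changes on this scale understate those of low genes. edgeR and DESeq2 1.42.0 on recovered reads, other scalings (TMM, total reads), no filter, pseudocounts of 0.1 and 10, no trend, a replicate block and leaving out each library were alternatives. Leaving out both libraries numbered 3 was added after the marker values were seen. The code was tested on simulated data.

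Gene positions came from GENCODE and promoter windows from RefSeq, both on GRCm38. The members and gene lists were chosen with earlier results of these data known. Genes named were all members, Hif1a, up to 4 genes of lowest unadjusted p per list, a set of receptor and signaling genes whatever their p, and the 5 profiles most like Il33. Of these, 1 gene of the IL-6 family list enters the counts but is not reported here. Any other gene or ratio named was chosen after its values were seen. R 4.3.3 and Python 3.11.15 (pandas 2.3.3, numpy 2.4.6, matplotlib 3.10.9, scipy 1.17.1) ran the computations.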

Additional observations from a re-analysis of the deposited data

How the results depend on the processing

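Il6, Il11 and Il1a rest on few reads, so their values carry wide counting error. Il33 was lower in HIF-1α-KD cells under all 16 alternatives. Its log2 fold change ranged from -2.20 to -1.51 when a library was left out, and with DESeq2 it was -1.92 and passed the adjusted threshold, so that the count of members called lower went from 0 to 1. The count of members called higher by unadjusted p and a fold of at least 1.5 was 0, and it was 1, Il1b, with edgeR, with DESeq2 and with the replicate block, and 0 to 1 when a library was left out (1 without HIF-1α-KD replicate 1). Of the pathway genes, 4 were called higher by that rule, against 1 with DESeq2, 2 with the replicate block, 1 without both libraries numbered 3, 2 at a fold of at least 2, and 1 to 7 when a library was left out (1 without Mock replicate 1, 2 without Mock replicate 2, 7 without HIF-1α-KD replicate 1 and 2 without HIF-1α-KD replicate 2). The 4 called lower became 0 at a fold of at least 2, and 1 to 4 when a library was left out (1 without Mock replicate 1 and 2 without HIF-1α-KD replicate 2). The cause was not tested. With the replicate block, Il33 was at -1.94 with an adjusted p of 0.0535. Deviations of same-numbered libraries correlated at -0.139, -0.123 and 0.0228, beside -0.0716 to 0.162 for libraries of different number. These values gave no sign that the numbers pair the libraries, but 3 libraries per group cannot exclude a weak pairing.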

Other observations

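Other interleukin and interleukin receptor genes were looked at after the values above were known. Of 19 such genes that were tested, 10 had a positive and 9 a negative log2 fold change, and 0 passed an adjusted p below 0.05 with limma, where 2 had an unadjusted p below 0.05, as had 1529 of all 12014 tested genes. Il13ra2, which encodes a decoy receptor for IL-13, had 66.48, 43.06 and 73.68 normalized counts across Mock replicates, compared with 16.09, 33.57 and 16.17 across HIF-1α-KD replicates, without overlap (log2 fold change -1.48, SE 0.43, adjusted p = 0.258 by limma). Il2rg, the shared receptor chain of IL-2 and related cytokines, had 843.3, 767.5 and 1363 against 2571, 2062 and 1044 normalized counts, which overlapped (log2 fold change 0.88, SE 0.34, adjusted p = 0.354). Il34, a ligand of the CSF1 receptor, stood at a mean FPKM of 42.0 ± 6.85 (SD, n = 3) for Mock against 44.5 ± 5.55 (SD, n = 3) for HIF-1α-KD cells.

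The profile of Il1rl1 over the 6 libraries was most like those of Fgf10, Apol9b, Apol9a, Car5b and Mpp7, none of which was among the 5 genes most like Il33. The root mean square difference of centered log2(normalized count + 1) was 0.166 to 0.182 for these, beside 0.574 for Il1rl1 around its own mean. In Fgf10, a growth factor gene of mesenchyme, the values were 187.1, 116.8 and 199.3 across Mock replicates, compared with 76.41, 158.3 and 124.8 across HIF-1α-KD replicates. Apol9a and Apol9b are close copies of each other, and how shared reads were counted is not given in the sources used here.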
